A study of Mus musculus with 96 samples.

Results

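The genes described here encode the catalytic and sub-complex-defining subunits of Polycomb repressive complex 1 (PRC1) in mouse embryonic stem cells (ESCs). They are the RING-finger ligase genes Ring1 and Rnf2, the 6 Polycomb group ring finger genes Pcgf1, Pcgf2, Pcgf3, Bmi1 (Pcgf4), Pcgf5 and Pcgf6, and the sub-complex genes Kdm2b and L3mbtl2. The members were taken by gene symbol, matched to the Ensembl identifiers of the count tables, and make up 10 of the 37620 genes in those tables. The rule used the symbols alone, and the set was chosen with earlier results of these data known. All 10 passed the filter on low counts in each of the 7 comparisons, so that 70 changes were tested.

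PRC1 attaches ubiquitin to histone H2A (H2AK119ub1), and its catalytic core is a dimer of RING1A (encoded by Ring1) or RING1B (encoded by Rnf2) with a PCGF protein. The PCGF protein decides which complex forms: PCGF2 and BMI1 are found in canonical PRC1 with CBX and PHC proteins, PCGF1 in variant PRC1.1 with KDM2B, PCGF3 and PCGF5 in PRC1.3 and PRC1.5, and PCGF6 in PRC1.6 with L3MBTL2. RYBP, or its paralog YAF2, takes the place of CBX in the variant complexes. WDR5, a core subunit of the complexes that methylate lysine 4 of histone H3, has also been found in PRC1.6.

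The series holds RNA-seq of mouse ESCs in 7 tables, with 2 libraries per group, and ChIP-seq peak lists. Rybp knockout compared Rybp-/- with Rybp+/+ cells of the line R7.15, which carries floxed Rybp and Cre-ERT2 at Rosa26, so that the Rybp-/- group alone had received 5 uM 4-hydroxytamoxifen (4-OHT) for 4 days and drug and deletion cannot be told apart. Rybp knockdown (shRybp) and Wdr5 knockdown (shWdr5) were each compared with the empty vector shEV in R1 cells. The labels give 1 shEV group of 2 libraries, and the shEV columns of both tables were taken as these libraries counted in different ways: over 15834 genes the log2 counts of columns with the same number correlated at 0.9995 and 0.9990, and of columns with different numbers at 0.9913 and 0.9888. These comparisons thus share their controls. The TF-AA mutation was compared with WT ESC in R1 cells, and the labels do not say what TF-AA stands for. RYBP phase disruption, a deletion of 21 amino acids of RYBP, was compared with WT.RYBP in R7.15 cells that all carried RYBPfl/fl with Rosa26::CreERT2, a transgene and 4-OHT. RYBP overexpression compared doxycycline (DOX) with vehicle in Tet.RYBP cells of the line J1. The last comparison set rTRS DOX against rTRS NTC in rTRS cells, which hold a DOX-induced Rybp and Stat3 integration. The column of rTRS DOX replicate 2 carries a prefix that the labels do not explain, and the vehicle columns of Tet.RYBP are headed NTC; both were assigned by the table they stand in. The peak lists used are H3K4me3, H3K27ac, WDR5 and STAT3 in the Rybp+/+ and Rybp-/- cells, RING1B in shEV and in cells with shRNA against Stat3 (shStat3), and RING1B and STAT3 in Tet.Rybp.Stat3 cells, labelled for a DOX-induced Rybp and Stat3, without (DOX-) and with DOX (DOX+). The labels number the replicates without naming separate cultures, so p-values measure the spread between these libraries, which may be technical.

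Each library held 14512857 to 81049618 reads on genes. Rybp, the targeted gene, went from 110.4 and 110.2 CPM (read counts scaled to the TMM-adjusted library total) to 24.8 and 25.0 CPM in the knockout, from 85.7 and 86.4 to 35.8 and 36.6 CPM in the knockdown, and from 135 and 145 to 522 and 535 CPM with DOX in Tet.RYBP cells. Wdr5 went from 349.8 and 343 to 60.05 and 58.2 CPM in its knockdown. Rybp rose there, from 79.9 and 81.3 to 121 and 117 CPM (log2 fold change 0.56, edgeR adjusted p = 3.8e-09), and Wdr5 fell in the Rybp knockdown, from 372 and 364 to 265 and 259.7 CPM (log2 fold change -0.49, edgeR adjusted p = 2.7e-08). In the rTRS libraries labelled DOX, Rybp stood at 102 and 99.8 CPM against 113 and 110.5 CPM in NTC (log2 fold change -0.15, edgeR adjusted p = 0.076), and Stat3 at 191 and 188 against 159 and 172 CPM (log2 fold change 0.20, edgeR adjusted p = 0.026). The labelled induction of Rybp is therefore not seen in the RNA of those libraries. Both groups of the phase disruption table held high Rybp, with 749 and 753 CPM in WT.RYBP and 662 and 626 CPM in the deletion. Markers of ESCs were detected in every table. In rTRS 7 of the 9 ESC markers fell, and their sum was from 6263 to 6591 CPM in the control libraries and from 3819 to 4073 CPM in the others. In the Wdr5 knockdown 6 fell and 2 rose, with a sum from 8248 to 8528 CPM in the control libraries and from 6930.4 to 7015 CPM in the others, and in the Rybp knockdown 4 fell and 4 rose, with a sum from 8769 to 9062 CPM in the control libraries and from 7656 to 7696 CPM in the others. Trophectoderm markers (4 of 5 matched, none at 0) summed from 124 to 137 CPM in the control libraries and from 846 to 915 CPM in the others in rTRS, and from 40.0 to 43.8 CPM in the control libraries and from 178 to 196 CPM in the others in the Rybp knockdown. Their sum was also above the controls in the knockout (69.9 to 74.1 against 52.0 to 56.1 CPM) and the TF-AA mutation (52.3 to 54.2 against 36.5 to 39.0 CPM). The same held in phase disruption (288 to 305 against 253 to 265 CPM). With RYBP overexpression it was below them (19.2 to 23.6 against 25.1 to 25.8 CPM), with 0 called. Mesoderm markers (5 of 5 matched, none at 0) summed from 13.1 to 15.7 CPM in the control libraries and from 62.1 to 69.1 CPM in the others in rTRS. Neural markers (3 of 4 matched) summed from 15.0 to 18.4 CPM in the control libraries and from 45.7 to 48.2 CPM in the others in rTRS and from 20.1 to 21.4 CPM in the control libraries and from 44.1 to 48.9 CPM in the others in the Rybp knockdown. In each of these tables, of the 2 neural markers tested, 1 was called higher and 1 lower, so the sum does not stand for all of them. Primitive endoderm markers (6 of 6 matched, Dab2 at 0) summed from 12.5 to 14.9 CPM in the control libraries and from 29.6 to 30.5 CPM in the others in the Wdr5 knockdown. Their sum was also above the controls in the Rybp knockdown (21.0 to 21.7 against 12.8 to 15.5 CPM) and the TF-AA mutation (15.0 to 15.2 against 8.69 to 8.70 CPM). Smaller rises lay in phase disruption (11.3 to 12.2 against 8.30 to 9.63 CPM) and the knockout (5.61 to 6.08 against 4.05 to 4.37 CPM). The sum was below the controls with RYBP overexpression (1.89 to 3.07 against 5.22 to 5.29 CPM) and in rTRS (1.75 to 1.98 against 3.01 to 3.03 CPM). Markers of 2-cell-like cells (3 of 5 matched) rose together in the knockout, the Rybp knockdown, the TF-AA mutation and phase disruption, and fell together in the Wdr5 knockdown and rTRS. They summed from 0.174 to 0.204 CPM in the control libraries and from 46.3 to 47.0 CPM in the others in the knockout, from 40.0 to 42.4 CPM in the control libraries and from 172 to 181 CPM in the others in the Rybp knockdown, from 0.0988 to 0.764 CPM in the control libraries and from 44.0 to 44.1 CPM in the others in the TF-AA mutation, from 41.6 to 45.0 CPM in the control libraries and from 379 to 399 CPM in the others in phase disruption, from 37.6 to 39.4 CPM in the control libraries and from 14.4 to 15.3 CPM in the others in the Wdr5 knockdown, from 0.277 to 0.782 CPM in the control libraries and from 4.13 to 4.94 CPM in the others with RYBP overexpression and from 23.5 to 25.3 CPM in the control libraries and from 10.8 to 11.5 CPM in the others in rTRS. Fibroblast markers (7 of 7 matched, none at 0) summed from 432 to 443 CPM in the control libraries and from 352 to 379.7 CPM in the others in phase disruption, and from 60.2 to 60.7 CPM in the control libraries and from 120.4 to 125 CPM in the others in the knockout. With Lum and Dcn at 0, their sum was above the controls in the TF-AA mutation (30.1 to 31.0 against 17.1 to 17.4 CPM) and the Rybp knockdown (34.4 to 34.5 against 21.2 to 22.3 CPM). In each, 3 of 4 tested were called higher and 0 lower. The sum was below the controls in the Wdr5 knockdown (16.9 to 17.3 against 20.6 to 21.8 CPM) and with RYBP overexpression (11.4 to 14.9 against 15.7 to 17.0 CPM). The part of these marker differences in the changes below was not tested.

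The start regions of the members whose RNA or RING1B peaks stood apart were read from the mm9 genome (NCBIM37). Each line gives the 250 bases before the protein-coding start nearest the H3K4me3 summit of Rybp+/+ cells, 5′ to 3′ on the gene's strand, with every CG dinucleotide in capitals, since KDM2B binds unmethylated CG-rich DNA through its CXXC domain. None of these 4 windows overlaps an annotated exon. Those of Bmi1, Kdm2b and Pcgf5 lie inside the gene, between exons of transcripts that start further upstream, and that of Pcgf3 lies before the gene.
Bmi1, chr2:18599184-18599433, plus strand: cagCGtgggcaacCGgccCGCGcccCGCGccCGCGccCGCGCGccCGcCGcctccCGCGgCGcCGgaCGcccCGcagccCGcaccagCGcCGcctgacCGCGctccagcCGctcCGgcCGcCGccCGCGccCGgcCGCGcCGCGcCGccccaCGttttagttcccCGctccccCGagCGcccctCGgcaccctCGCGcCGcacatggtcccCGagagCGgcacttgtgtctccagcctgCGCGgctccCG
Kdm2b, chr5:123350365-123350614, minus strand: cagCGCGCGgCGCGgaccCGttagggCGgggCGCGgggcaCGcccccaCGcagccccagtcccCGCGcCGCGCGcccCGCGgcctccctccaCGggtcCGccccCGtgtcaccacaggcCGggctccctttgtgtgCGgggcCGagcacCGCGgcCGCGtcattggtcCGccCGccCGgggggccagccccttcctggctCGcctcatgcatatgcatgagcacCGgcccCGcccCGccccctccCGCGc
Pcgf5, chr19:36483988-36484237, plus strand: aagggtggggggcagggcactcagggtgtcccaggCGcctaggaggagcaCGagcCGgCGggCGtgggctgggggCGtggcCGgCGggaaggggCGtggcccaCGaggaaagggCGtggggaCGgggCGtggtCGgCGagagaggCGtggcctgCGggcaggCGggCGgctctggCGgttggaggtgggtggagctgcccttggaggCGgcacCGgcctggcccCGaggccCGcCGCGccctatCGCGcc
Pcgf3, chr5:108890001-108890250, plus strand: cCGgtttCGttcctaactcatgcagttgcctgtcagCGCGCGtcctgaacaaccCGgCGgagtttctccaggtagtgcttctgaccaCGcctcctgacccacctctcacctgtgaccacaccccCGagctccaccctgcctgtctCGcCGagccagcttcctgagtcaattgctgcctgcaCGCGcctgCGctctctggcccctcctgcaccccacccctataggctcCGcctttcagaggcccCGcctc
The window of Bmi1 held 49 CG dinucleotides, more than 99.5% of 13675 protein-coding genes read in the same way, whose median was 18. Kdm2b held 37 and Pcgf5 held 28, both above that median, while Pcgf3 held 16. Over all 10 members the count ran from 16 in Pcgf3 to 49 in Bmi1. Neither the E-box CACGTG, the word bound by MAX and MGA of PRC1.6, nor the STAT word TTCCNGGAA, both searched on both strands by their palindromic form, occurred in any of the 10 windows; 8.66% and 1.04% of all windows held them.

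Levels were compared between genes per kb of the gene length deposited with the knockout table. Over the 14 control library columns, in which the shEV libraries count in both knockdown tables, Rnf2 had the highest median with 54.1 CPM per kb (range 35.2 to 70.4). L3mbtl2 followed with 28.1 CPM per kb (range 18.0 to 30.4), then Pcgf2 with 26.0 CPM per kb (range 15.3 to 42.2) and Pcgf6 with 19.8 CPM per kb (range 15.1 to 26.2). Kdm2b had 14.1 CPM per kb (range 7.60 to 17.6). Pcgf3, Pcgf1 and Pcgf5 lay close together, with 8.01 CPM per kb (range 5.28 to 9.78), 6.88 CPM per kb (range 3.48 to 7.81) and 6.61 CPM per kb (range 3.40 to 14.2), and their ranges overlapped. Ring1 had 4.14 CPM per kb (range 3.08 to 16.0), and Bmi1, the lowest, 1.91 CPM per kb (range 1.14 to 7.01). Of neighbours in this order, only Rnf2 and L3mbtl2 had ranges that did not overlap. In every control library Rnf2 was above Ring1, and Pcgf2 above Bmi1. In the shEV libraries Pcgf2 was also above Rnf2, and Ring1 reached its highest level, 51.7 and 52.0 CPM in the Rybp knockdown table against 16.5 and 13.7 CPM in WT ESC of the same line. The tables were made separately, so such levels across tables also carry any difference in counting.

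**Figure D1:**
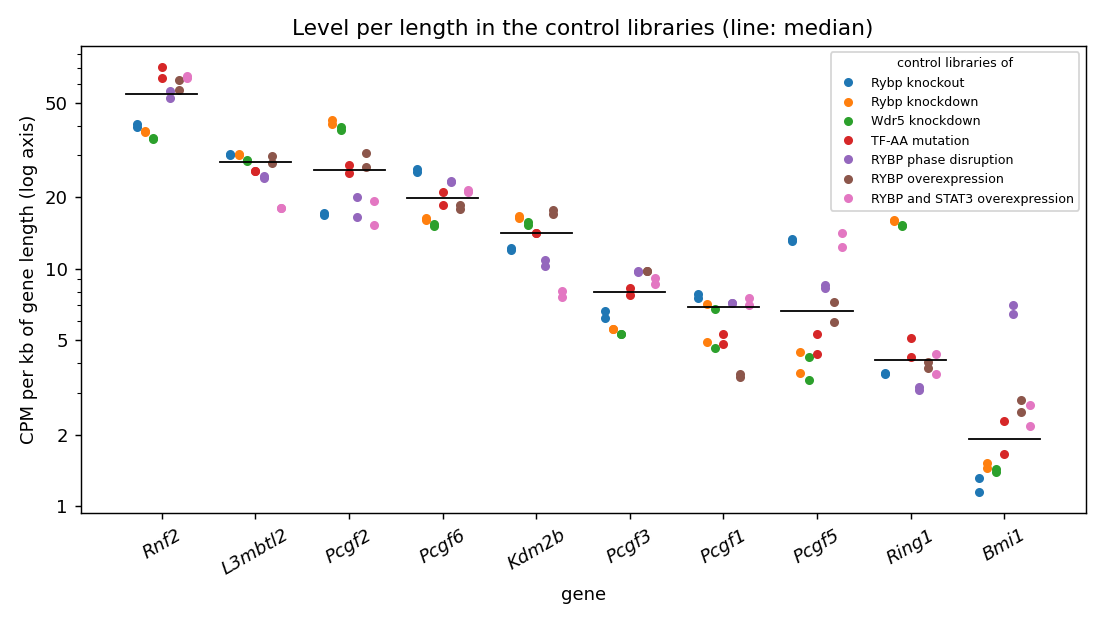
RNA level per kb of gene length on a log axis for each member (x axis), with 1 point per control library coloured by its table and a line at the median. Rnf2 has the highest median and Bmi1 the lowest, and the 2 WT.RYBP points of Bmi1 (phase disruption) lie above its others. The rTRS table is named RYBP and STAT3 overexpression in the key.

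The members were then tested in each table with edgeR, with p-values adjusted over all genes. The Rybp knockdown moved all 10 members, 4 higher and 6 lower, where 26.8% of all tested genes were higher and 26.0% lower. RYBP phase disruption moved 7 members, 2 higher and 5 lower, against 16.1% and 17.0% of all genes. The Wdr5 knockdown moved 6 members, 3 in each direction, against 31.5% higher and 31.5% lower. In the Rybp knockout 5 members fell and none rose, against 22.7% lower and 22.8% higher of all genes. In the rTRS DOX libraries 4 members were higher and 1 lower, against 23.0% and 20.4%. In the TF-AA mutation 1 member rose and 3 fell, against 14.4% and 16.1%. With RYBP overexpression no member passed, against 3.63% higher and 2.39% lower of all genes; 3 members had an unadjusted p under 0.05, and DESeq2 also called 0. The median log2 fold change of the members was -0.21 in the knockout, -0.20 in the Rybp knockdown, -0.066 in the Wdr5 knockdown, -0.10 in the TF-AA mutation, -0.20 in phase disruption, -0.087 with RYBP overexpression and 0.16 in rTRS, beside medians over all genes of -0.0074 to 0.018. In bulk RNA, fewer cells of a type and less RNA per cell cannot be told apart.

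The scaling between libraries bears on the Rybp knockdown. Scaled by TMM, all genes divided into 4428 higher and 4293 lower; scaled by total counts alone, they divided into 6167 higher and 2493 lower, with the median of all genes at 0.18. Under total counts the falls of Ring1, Rnf2, Pcgf6 and L3mbtl2 in that knockdown no longer passed, while those of Pcgf2 and Kdm2b and the 4 rises did, the rise of Pcgf3 becoming 0.43 in place of 0.28. For phase disruption the split went from 2343 higher and 2471 lower to 2937 higher and 1826 lower.

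**Figure D2:**
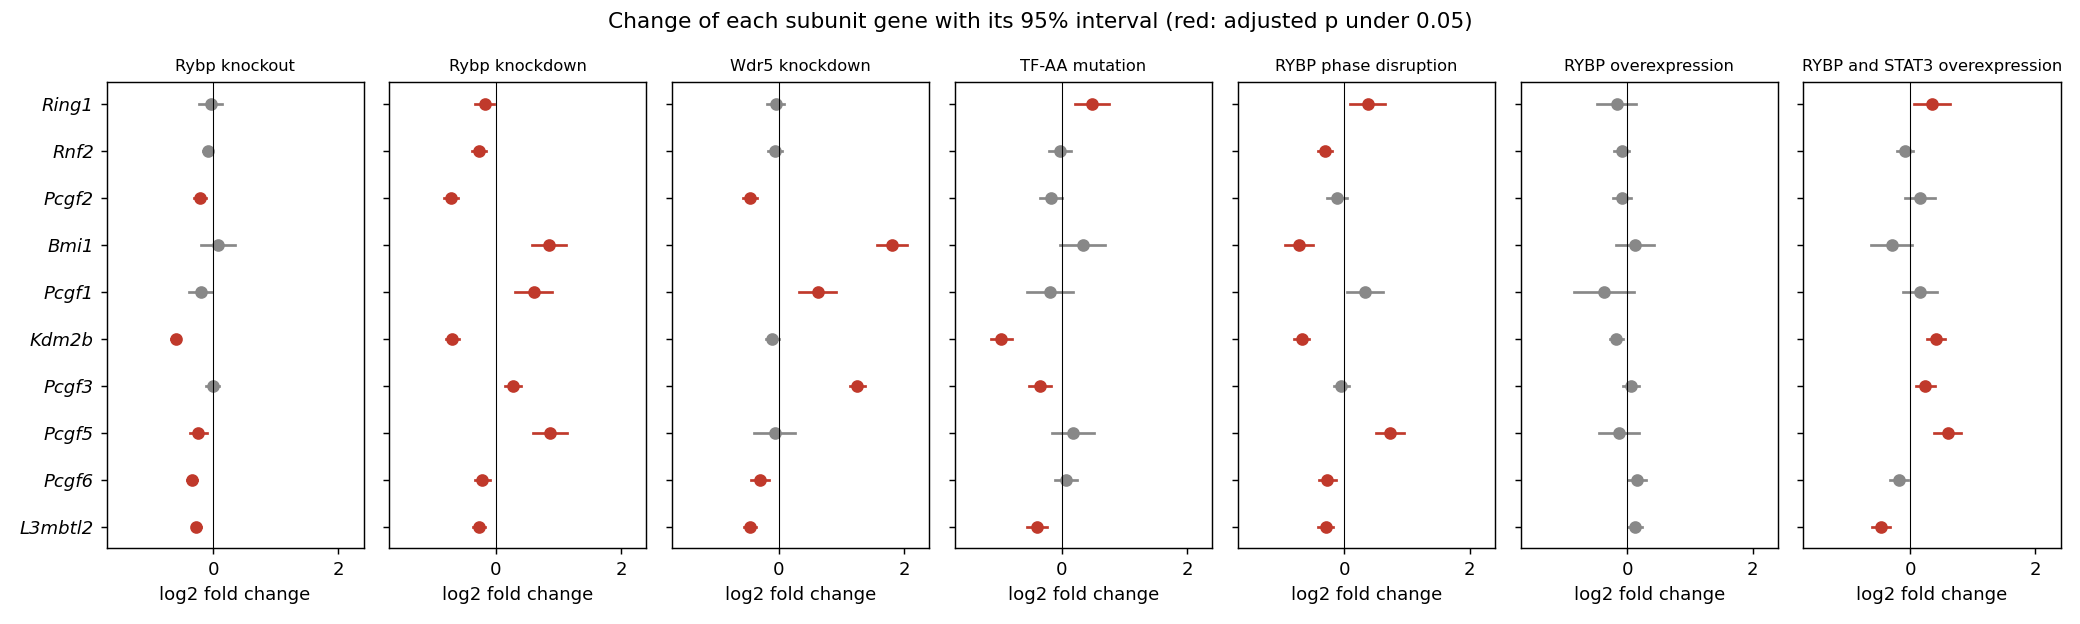
Log2 fold change (x axis) of the 10 members (y axis) in the 7 comparisons, 1 panel each, with the 95% interval of the edgeR fit as a line and members with an adjusted p under 0.05 in red. Kdm2b is red to the left of 0 in 4 panels and L3mbtl2 in 6, and Bmi1 and Pcgf3 reach furthest right in the Wdr5 knockdown. The last panel is the rTRS comparison.

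Rnf2 and Ring1 encode the ubiquitin ligases. Rnf2 (chr1:153316536-153347953, minus strand) was the steadiest member, with log2 fold changes from -0.31 to -0.023. It stood at 114 and 114 CPM in shEV and 92.0 and 97.4 CPM in shRybp (log2 fold change -0.27, SE 0.053, edgeR adjusted p = 0.00031). It stood at 169.6 and 158 CPM in WT.RYBP and 137 and 128 CPM in phase disruption (log2 fold change -0.31, SE 0.054, edgeR adjusted p = 3.3e-05). In both tables the groups did not overlap, and under TMM Rnf2 fell by about the same factor, 1.21-fold and 1.24-fold. Scaled by total counts, its log2 fold change in the Rybp knockdown was -0.11. Groups of 2 libraries that did not overlap were also found for 7 of the 10 members with RYBP overexpression, where no member passed. In the knockout Rnf2 had 123 and 119.4 CPM in Rybp+/+ and 112 and 116 CPM in Rybp-/- (log2 fold change -0.089, SE 0.038, edgeR adjusted p = 0.054), which missed the threshold. Ring1 (chr17:34157737-34161625, minus strand) rose in the TF-AA mutation, from 16.5 and 13.7 to 19.7 and 22.6 CPM (log2 fold change 0.49, SE 0.13, edgeR adjusted p = 0.0057). It also rose in phase disruption (log2 fold change 0.37, SE 0.14, edgeR adjusted p = 0.041) and in the rTRS DOX libraries (log2 fold change 0.35, SE 0.13, edgeR adjusted p = 0.047), and fell in the Rybp knockdown (log2 fold change -0.18, SE 0.073, edgeR adjusted p = 0.049). DESeq2 called none of these 4 changes of Ring1. In the Rybp knockdown the log2 fold change was -0.069 without shRybp replicate 1 and -0.30 without shRybp replicate 2. In phase disruption the call was lost without any 1 of the 4 libraries, at log2 fold changes of 0.34 to 0.40. It was lost in the TF-AA mutation without TF-AA replicate 2 (0.38), and in rTRS without NTC replicate 2 (0.22) or DOX replicate 1 (0.22). In the knockout and the Wdr5 knockdown the groups overlapped.

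Pcgf2 and Bmi1 encode the PCGF proteins of canonical PRC1. Pcgf2 (chr11:97550137-97561811, minus strand) fell with loss of Rybp or Wdr5. Its level was 139 and 145 CPM in shEV and 85.4 and 88.0 CPM in shRybp (1.64-fold lower; log2 fold change -0.71, SE 0.052, edgeR adjusted p = 1.7e-09). In the Wdr5 table it was 131 and 136 CPM in shEV and 95.9 and 98.8 CPM in shWdr5 (log2 fold change -0.46, SE 0.052, edgeR adjusted p = 6.2e-08). In the knockout it went from 57.7 and 59.2 to 49.9 and 50.7 CPM (log2 fold change -0.22, SE 0.047, edgeR adjusted p = 0.00029). No group overlapped its control in these 3 tables, and Pcgf2 did not pass in the other 4.

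Bmi1 (chr2:18598645-18608256, plus strand) had the widest range of changes of the members. It rose 3.50-fold in the Wdr5 knockdown, from 5.71 and 5.52 to 19.1 and 20.2 CPM (log2 fold change 1.81, SE 0.12, edgeR adjusted p = 4.7e-12). It rose 1.80-fold in the Rybp knockdown, from 6.04 and 5.74 to 10.3 and 10.9 CPM (log2 fold change 0.85, SE 0.13, edgeR adjusted p = 2.5e-05). In both, each knockdown library was above each shEV library. In phase disruption Bmi1 fell, from 27.9 and 25.5 CPM in WT.RYBP to 17.5 and 14.9 CPM (log2 fold change -0.72, SE 0.11, edgeR adjusted p = 3.6e-06). The WT.RYBP controls held more Bmi1 than any other control. They also held higher sums of fibroblast, neural (165 to 184 CPM), trophectoderm (253 to 265 CPM) and mesoderm markers (35.6 to 36.8 CPM) than the controls of any other table, and the part of these in the level of Bmi1 was not tested. In the knockout Bmi1 had 5.24 and 4.55 CPM in Rybp+/+ and 4.94 and 5.38 CPM in Rybp-/- (log2 fold change 0.077, SE 0.13, edgeR adjusted p = 0.68), and the groups overlapped.

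Commd3, whose start lies 2369 bases from a start of Bmi1, was looked at after the values of Bmi1 were seen. It had 10.3 and 10.7 CPM in shEV and 43.0 and 46.3 CPM in shWdr5 (log2 fold change 2.08, edgeR adjusted p = 2.2e-15), and 11.1 and 11.5 against 30.1 and 27.8 CPM in the Rybp knockdown (log2 fold change 1.36, edgeR adjusted p = 5.5e-10). In the knockout it passed (log2 fold change 0.55, edgeR adjusted p = 3.6e-05), as it did in the TF-AA mutation (log2 fold change 0.98, edgeR adjusted p = 2.7e-05) and in rTRS (log2 fold change 0.54, edgeR adjusted p = 0.00054), and Bmi1 was called in none of these 3, with log2 fold changes of 0.077, 0.34 and -0.30. In phase disruption, where Bmi1 fell, Commd3 did not pass (log2 fold change -0.15, edgeR adjusted p = 0.32), nor did it with RYBP overexpression (log2 fold change -0.011, edgeR adjusted p = 0.98). Of 13125 other genes tested in all 7 tables, those with the smallest Euclidean distance to Bmi1 over the 7 log2 fold changes were Zfp874a (0.43), BC031353 (0.49) and Lpin1 (0.53), where the median distance was 2.42.

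**Figure D3:**
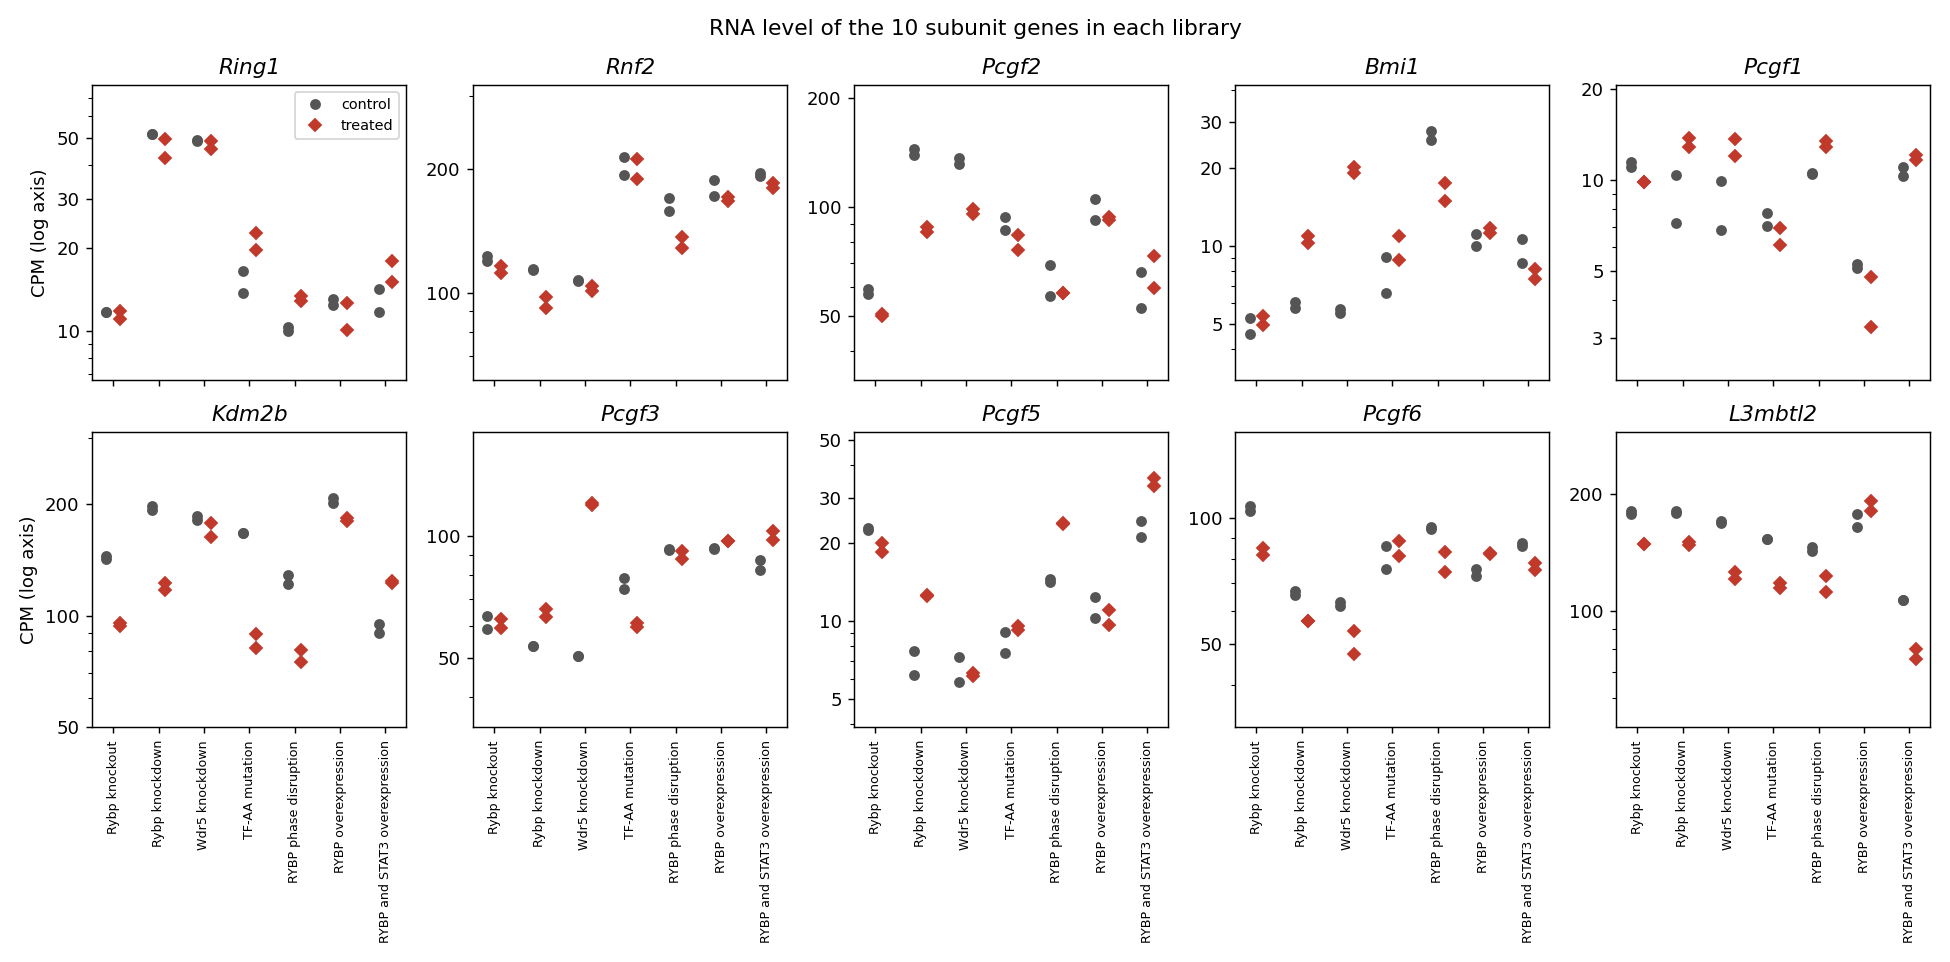
CPM on a log axis for each of the 10 members (panels) in the 7 tables (x axis), with the 2 control libraries in grey and the 2 libraries of the other group in red. Kdm2b and L3mbtl2 lie below their controls in the knockout, the Rybp knockdown, the TF-AA mutation and phase disruption, and Bmi1 and Pcgf3 lie above theirs in the Wdr5 knockdown.

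Pcgf1 and Kdm2b belong to PRC1.1, in which KDM2B, a histone demethylase family protein, brings the complex to CG-rich DNA. Kdm2b (chr5:123320677-123465089, minus strand) fell in 4 comparisons, the knockout, the Rybp knockdown, phase disruption and the TF-AA mutation. In the knockout it went from 142 and 144 to 95.5 and 93.8 CPM (1.51-fold lower; log2 fold change -0.60, SE 0.037, edgeR adjusted p = 6.4e-15). In the Rybp knockdown it went from 197 and 192 to 117 and 123 CPM (1.62-fold lower; log2 fold change -0.70, SE 0.049, edgeR adjusted p = 1e-09). The groups stood well apart in both. In phase disruption it had 128 and 121 CPM in WT.RYBP and 74.97 and 80.6 CPM in the deletion (1.60-fold lower; log2 fold change -0.68, SE 0.06, edgeR adjusted p = 4.9e-11). Its largest fall of the 7 comparisons was in the TF-AA mutation, from 167 and 167 to 89.1 and 81.8 CPM (1.95-fold lower; log2 fold change -0.97, SE 0.081, edgeR adjusted p = 2.4e-09). All 4 falls kept their call under every setting tried, also with each library left out in turn. In the rTRS DOX libraries Kdm2b was higher, 124 and 122 against 89.8 and 94.9 CPM (log2 fold change 0.42, SE 0.066, edgeR adjusted p = 0.00024). With RYBP overexpression it had 208 and 201 CPM with vehicle and 183 and 180.2 CPM with DOX (log2 fold change -0.17, SE 0.055, edgeR adjusted p = 0.055), which missed the threshold, and without vehicle replicate 2 the adjusted p was 0.00072.

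The gene model of Kdm2b overlaps exons of 2 genes on the other strand, Orai1 and the non-coding A930024E05Rik, and the strand setting of the counting is not given in the sources used here. Orai1 had 16.3 and 12.0 CPM in WT ESC and A930024E05Rik 2.96 and 3.61 CPM, against 167 and 167 CPM of Kdm2b. A930024E05Rik fell in the TF-AA mutation (log2 fold change -1.99, edgeR adjusted p = 7.4e-05), the knockout (log2 fold change -1.05, edgeR adjusted p = 0.012) and the Rybp knockdown (log2 fold change -0.99, edgeR adjusted p = 0.0095), where Kdm2b fell, and in the Wdr5 knockdown (log2 fold change -1.01, edgeR adjusted p = 0.0095), where Kdm2b was not called. Orai1 rose in rTRS (log2 fold change 1.03, edgeR adjusted p = 7.1e-06), where Kdm2b was higher, and fell in the TF-AA mutation (log2 fold change -0.54, edgeR adjusted p = 0.011). It rose in the knockout (log2 fold change 0.31, edgeR adjusted p = 0.037) and phase disruption (log2 fold change 0.46, edgeR adjusted p = 0.039), where Kdm2b fell, and fell in the Wdr5 knockdown (log2 fold change -0.35, edgeR adjusted p = 0.003). Where Kdm2b fell, A930024E05Rik was not called in phase disruption (log2 fold change -0.048, edgeR adjusted p = 0.95). Nor was Orai1 in the Rybp knockdown (log2 fold change 0.013, edgeR adjusted p = 0.91). How many reads these genes share with Kdm2b was not tested. Pcgf1 (chr6:83028380-83030841, plus strand), the PCGF of the same complex, was called in the knockdowns alone. It rose in the Rybp knockdown, from 7.21 and 10.4 to 12.8 and 13.8 CPM (log2 fold change 0.60, SE 0.14, edgeR adjusted p = 0.0016), and in the Wdr5 knockdown, from 6.83 and 9.92 to 13.7 and 12.0 CPM (log2 fold change 0.63, SE 0.14, edgeR adjusted p = 0.0006). The shEV libraries differed from each other more for Pcgf1 than for any other member, and without shEV replicate 1 the log2 fold change was 0.35 in the Rybp knockdown and 0.38 in the Wdr5 knockdown, still called. In the knockout it had 11.5 and 11.1 and then 9.83 and 9.86 CPM (log2 fold change -0.20, SE 0.091, edgeR adjusted p = 0.078).

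Pcgf3 and Pcgf5 encode close relatives that form PRC1.3 and PRC1.5. Pcgf3 (chr5:108890251-108935995, plus strand) rose 2.39-fold in the Wdr5 knockdown, from 50.5 and 50.4 to 119.9 and 121 CPM (log2 fold change 1.25, SE 0.055, edgeR adjusted p = 4.6e-15), with little spread in either group. It rose less in the Rybp knockdown, from 53.3 and 53.4 to 66.2 and 63.0 CPM (log2 fold change 0.28, SE 0.06, edgeR adjusted p = 0.00072). In the TF-AA mutation it fell, from 73.9 and 78.9 to 59.69 and 60.8 CPM (log2 fold change -0.34, SE 0.085, edgeR adjusted p = 0.0031), a call that was lost without TF-AA replicate 1 (log2 fold change -0.33, adjusted p = 0.076). In the rTRS DOX libraries it was higher (log2 fold change 0.25, SE 0.069, edgeR adjusted p = 0.011), which was lost without NTC replicate 1 (log2 fold change 0.21, adjusted p = 0.102) or DOX replicate 2 (log2 fold change 0.21, adjusted p = 0.0697).

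Pcgf5 (chr19:36453557-36530682, plus strand) was not called in the Wdr5 knockdown, where it had 5.85 and 7.29 CPM in shEV and 6.17 and 6.34 CPM in shWdr5 (log2 fold change -0.067, SE 0.16, edgeR adjusted p = 0.72). It rose 1.81-fold in the Rybp knockdown, from 6.22 and 7.67 to 12.6 and 12.5 CPM (log2 fold change 0.86, SE 0.13, edgeR adjusted p = 1.8e-05). It rose 1.65-fold in phase disruption, from 14.2 and 14.6 to 23.8 and 23.9 CPM (log2 fold change 0.73, SE 0.11, edgeR adjusted p = 3.9e-06), and 1.52-fold in the rTRS DOX libraries, from 21.1 and 24.3 to 33.2 and 35.7 CPM (log2 fold change 0.60, SE 0.10, edgeR adjusted p = 0.00034). In these 3 tables the groups did not overlap. In the knockout Pcgf5 fell, from 22.9 and 22.4 to 20.1 and 18.4 CPM (log2 fold change -0.23, SE 0.069, edgeR adjusted p = 0.006), a call lost without Rybp-/- replicate 2 (adjusted p = 0.121).

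Pcgf6 and L3mbtl2 belong to PRC1.6, which silences germline genes in ESCs. L3mbtl2 (chr15:81494319-81518745, plus strand) fell in 6 of the 7 comparisons, by 1.20-fold to 1.37-fold, and was not called with RYBP overexpression. It had 178 and 181 CPM in Rybp+/+ and 149 and 149 CPM in Rybp-/- (log2 fold change -0.27, SE 0.035, edgeR adjusted p = 7.5e-08). It had 169 and 170.5 CPM in shEV and 121 and 126 CPM in shWdr5 (log2 fold change -0.46, SE 0.049, edgeR adjusted p = 2.7e-08). In the TF-AA mutation it went from 153 and 153 to 118 and 115 CPM (log2 fold change -0.39, SE 0.078, edgeR adjusted p = 0.00039). In the Rybp knockdown it went from 179 and 181 to 148 and 151 CPM, in phase disruption from 147 and 143 to 112 and 123 CPM and in rTRS from 107 and 107 to 75.47 and 79.9 CPM. In each of the 6, both libraries lay below both controls. Exons of Chadl, on the other strand, overlap L3mbtl2 and had 1.72 and 1.74 CPM in Rybp+/+, against 178 and 181 CPM of L3mbtl2. Pcgf6 (chr19:47108109-47125380, minus strand) fell in 4 of the 7. In the knockout it went from 104 and 107 to 81.9 and 85.1 CPM (log2 fold change -0.34, SE 0.04, edgeR adjusted p = 1.5e-08). In the Wdr5 knockdown it went from 62.9 and 61.6 to 53.7 and 47.4 CPM (log2 fold change -0.30, SE 0.066, edgeR adjusted p = 0.00044). The falls in the Rybp knockdown and phase disruption were 1.16-fold (edgeR adjusted p = 0.0037) and 1.21-fold (edgeR adjusted p = 0.0011). In the TF-AA mutation, where L3mbtl2 fell, Pcgf6 had 75.7 and 86.0 and then 81.1 and 88.3 CPM, and the groups overlapped.

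Both ways of lowering Rybp were compared in 1 fit over both tables, with the effect in the knockout minus the effect in the knockdown as the contrast. Of all genes 40.5% differed. Of the members, Pcgf5 differed by -1.07 (SE 0.14, adjusted p = 1.2e-06), Pcgf1 by -0.77 (SE 0.17, adjusted p = 0.00099), Bmi1 by -0.75 (SE 0.19, adjusted p = 0.0024) and Pcgf3 by -0.26 (SE 0.077, adjusted p = 0.0086), the knockout value lying below the knockdown value in each. Pcgf2 differed by 0.52 (SE 0.067, adjusted p = 1.1e-06) and Rnf2 by 0.20 (SE 0.063, adjusted p = 0.012), the knockout value lying above the knockdown value in both. For Kdm2b the difference was 0.13 (95% interval 0.0041 to 0.25, adjusted p = 0.095), for L3mbtl2 0.02 (95% interval -0.10 to 0.13, adjusted p = 0.82), for Pcgf6 -0.10 (95% interval -0.24 to 0.042, adjusted p = 0.27) and for Ring1 0.16 (95% interval -0.067 to 0.39, adjusted p = 0.27). Scaled by total counts alone, the difference of Rnf2 was 0.046 (adjusted p = 0.61) and no longer passed, that of Pcgf6 was -0.26 (adjusted p = 0.004) and passed, those of Kdm2b and L3mbtl2 turned to -0.032 (adjusted p = 0.72) and -0.14 (adjusted p = 0.053) without passing, and the other 5 called members passed in the same direction. Cell line (R7.15 or R1), table and method differ together between these comparisons and cannot be told apart.

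The genes that work with these subunits were counted from 4 lists. Of 21 partners of variant PRC1, all tested, which include Rybp and Wdr5 themselves, 8 higher and 7 lower passed in the knockout, 5 higher and 13 lower in the Rybp knockdown, 11 higher and 4 lower in the Wdr5 knockdown, 3 higher and 6 lower in the TF-AA mutation, 3 higher and 9 lower in phase disruption, 1 higher and 0 lower with RYBP overexpression and 6 higher and 9 lower in rTRS. The targeted gene is among those lower in the knockout and in each knockdown, and the single gene higher with RYBP overexpression is the induced Rybp. Over all genes 22.8% were higher and 22.7% lower in the knockout, 26.8% and 26.0% in the Rybp knockdown, 31.5% and 31.5% in the Wdr5 knockdown, 14.4% and 16.1% in the TF-AA mutation, 16.1% and 17.0% in phase disruption, 3.63% and 2.39% with RYBP overexpression and 23.0% and 20.4% in rTRS, and the counts of all 4 lists stand beside these shares. E2f6, a sequence-binding repressor of PRC1.6, rose in the knockout (log2 fold change 0.64, edgeR adjusted p = 1.1e-10), the Rybp knockdown (log2 fold change 0.73, edgeR adjusted p = 1.6e-08) and the TF-AA mutation (log2 fold change 1.12, edgeR adjusted p = 8.4e-09). Bcor, the corepressor of PRC1.1, rose in the TF-AA mutation (log2 fold change 0.74, edgeR adjusted p = 1.8e-07) and in phase disruption (log2 fold change 0.48, edgeR adjusted p = 5.5e-08), where Kdm2b fell. The median log2 fold change of this list was -0.27 in the Rybp knockdown and 0.13 in the Wdr5 knockdown, beside 0.018 and -0.0074 over all genes. Yaf2, the paralog of Rybp, was higher in the rTRS DOX libraries (log2 fold change 0.88, edgeR adjusted p = 2.1e-05).

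Of 10 CBX, PHC and SCM genes of canonical PRC1, 4 higher and 4 lower passed in the knockout, 4 higher and 4 lower in the Rybp knockdown, 5 higher and 2 lower in the Wdr5 knockdown, 4 higher and 1 lower in the TF-AA mutation, 3 higher and 2 lower in phase disruption and 2 higher and 2 lower in rTRS, with 0 called with RYBP overexpression by edgeR. Phc2, a Polyhomeotic gene, rose in the knockout (log2 fold change 0.88, edgeR adjusted p = 1.3e-14), the Rybp knockdown (log2 fold change 0.69, edgeR adjusted p = 4.6e-08), the Wdr5 knockdown (log2 fold change 0.92, edgeR adjusted p = 1.8e-11), phase disruption (log2 fold change 0.74, edgeR adjusted p = 6.6e-09) and rTRS (log2 fold change 0.96, edgeR adjusted p = 3.6e-06). In the TF-AA mutation the 2 largest called changes of this list were those of Scml2 (log2 fold change 3.93, edgeR adjusted p = 1.2e-10) and Cbx8 (log2 fold change 1.76, edgeR adjusted p = 0.0018). Scml2 also rose in the knockout (log2 fold change 0.84) and was lower in rTRS (log2 fold change -0.56). Cbx8 also rose in the Wdr5 knockdown (log2 fold change 1.20). Of 11 tested PRC2 genes, which encode the complex that methylates lysine 27 of histone H3, 4 higher and 3 lower passed in the knockout, 3 higher and 6 lower in the Rybp knockdown, 5 higher and 4 lower in the Wdr5 knockdown, 0 higher and 3 lower in the TF-AA mutation, 4 higher and 2 lower in phase disruption, 3 higher and 2 lower with RYBP overexpression and 3 higher and 6 lower in rTRS. Phf19, a PRC2 accessory subunit, fell in the Wdr5 knockdown (log2 fold change -1.53, edgeR adjusted p = 4.4e-09), the Rybp knockdown (log2 fold change -0.88, edgeR adjusted p = 8.8e-06) and the TF-AA mutation (log2 fold change -0.64, edgeR adjusted p = 0.0013), and rose in phase disruption (log2 fold change 0.63, edgeR adjusted p = 0.00069). Of 6 genes of H2AK119ub1 deubiquitinases, 1 higher and 2 lower passed in the knockout, 0 higher and 1 lower in the Rybp knockdown, 2 higher and 2 lower in the Wdr5 knockdown, 1 higher and 1 lower in the TF-AA mutation, 0 higher and 2 lower in phase disruption and 0 higher and 3 lower in rTRS, with 0 called with RYBP overexpression.

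Peaks at the members were read from 14 deposited lists, 1 per antibody and condition, so that no test between conditions was possible. A gene was counted where a peak overlapped 2500 bases either side of any of its annotated starts, and the background is 15042 protein-coding genes tested in the knockout. H3K4me3, a mark of active and poised starts, and H3K27ac, a mark of active starts and enhancers, were present at all 10 members. In Rybp+/+ they were found at 90.9% and 73.5% of background genes, and in Rybp-/- at 91.1% and 77.5%. The H3K27ac peak of Bmi1 was 351 bases wide with a fold enrichment of 4.76 in Rybp+/+, where genes with a peak had a median of 14.4. Its H3K4me3 enrichment was 45.9, above the median of 36.4. Pcgf1 likewise had low H3K27ac, 4.97 in Rybp+/+ and 8.12 in Rybp-/-. Of the 10 members 7 had the higher H3K27ac value in Rybp-/-, beside 39.0% of background genes with a peak in both lists, and each genotype has 1 list. Among the 7 is Pcgf2, with 23.1 in Rybp+/+ and 24.4 in Rybp-/-. Its summits lie at -3175 and 261 bases from the nearest Pcgf2 start, so that these are not values of 1 peak. For H3K4me3, 6 of the 10 members had the higher value in Rybp-/-, beside 54.4% of background genes. At Pcgf5 the H3K27ac enrichment was 6.40 in Rybp+/+ and 13.6 in Rybp-/-. At Kdm2b it was 19.3 and 11.7, in a peak at the most upstream Kdm2b start, which lies 6 bases from an Orai1 start, so that it cannot be given to Kdm2b alone.

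WDR5 peaks lay at 9 members in Rybp+/+ and at 9 in Rybp-/-, against 66.5% and 69.7% of background genes. Pcgf1 had none in Rybp+/+ and Bmi1 none in Rybp-/-, where the list held one further from its start. The highest was at Pcgf2 in Rybp+/+, at a fold enrichment of 23.3. The summit of that peak lies at -2871 bases relative to the nearest Pcgf2 start, upstream of it, and 31 bases from a start of the neighbouring gene Psmb3, so that it lies at the start of Psmb3 rather than at one of Pcgf2. In Rybp-/- the highest peak at Pcgf2 had 4.85 and lay at another start of the gene, so that these are not values of 1 peak. Of the 8 members with a peak in both lists, the other 6 besides Pcgf2 and Kdm2b had the higher value in Rybp-/-: Ring1 with 9.25 and 11.2, Rnf2 with 3.71 and 6.53, Pcgf3 with 4.08 and 5.21, Pcgf5 with 4.41 and 7.63, Pcgf6 with 4.72 and 6.65 and L3mbtl2 with 6.76 and 9.32, in Rybp+/+ and Rybp-/- in turn. Of 9537 background genes with a peak in both, 56.3% were higher in Rybp-/-, and the medians of genes with a peak were 5.70 and 5.71. With 1 list per genotype these differences have no replicate check. Kdm2b had 11.2 in Rybp+/+ and 7.22 in Rybp-/-, next to a start inside the gene at the end of the window printed above.

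RING1B, the protein of Rnf2 itself, was mapped as broad regions in shEV, shStat3 and the Tet.Rybp.Stat3 cells labelled DOX- and DOX+. Peaks lay at 8, 9, 10 and 8 members, against 61.3%, 55.2%, 73.5% and 55.2% of background genes. The shEV and shStat3 lists come from 1 sample each, and the DOX- and DOX+ lists from 2 merged samples each. With a -log10 q of at least 2 the shStat3 count was 7 members, against 52.7% of background genes, as the peaks of Rnf2 and Pcgf3 dropped out. The member counts of the other 3 lists stayed the same. Bmi1 stood apart from the other members in all 4 lists. In DOX- a single RING1B domain of 13700 bases (chr2:18592209-18605908) spanned the start of Bmi1, with a fold enrichment of 34.8, and it was wider than 99.1% of the peaks at background genes, while its enrichment was above that of 93.6% of genes with a peak. The domain also covers all 12 annotated starts of Commd3 in DOX-, DOX+ and shStat3, and none of them in shEV, so that in those 3 lists it cannot be given to Bmi1 alone. The enrichment was 24.4 in DOX+, 24.0 in shEV and 19.1 in shStat3, above 90.3%, 89.8% and 84.1% of genes with a peak. Kdm2b was second in each list but never above 10.6, and its highest peak lay at another start in DOX- than in the other 3 lists. Its value is the highest over the windows of 22 annotated starts, more than any other member has. Rnf2 had RING1B at its own start, with 5.82 in DOX-, 2.62 in DOX+, 3.13 in shEV and 2.50 in shStat3. Each value was below the median of genes with a peak in its list, 5.89, 5.09, 4.91 and 5.32 in the same order. Pcgf1 had a peak in shEV and DOX- and none in the other 2 lists. The CG-rich window of Bmi1 printed above lies within this DOX- domain.

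**Figure D4:**
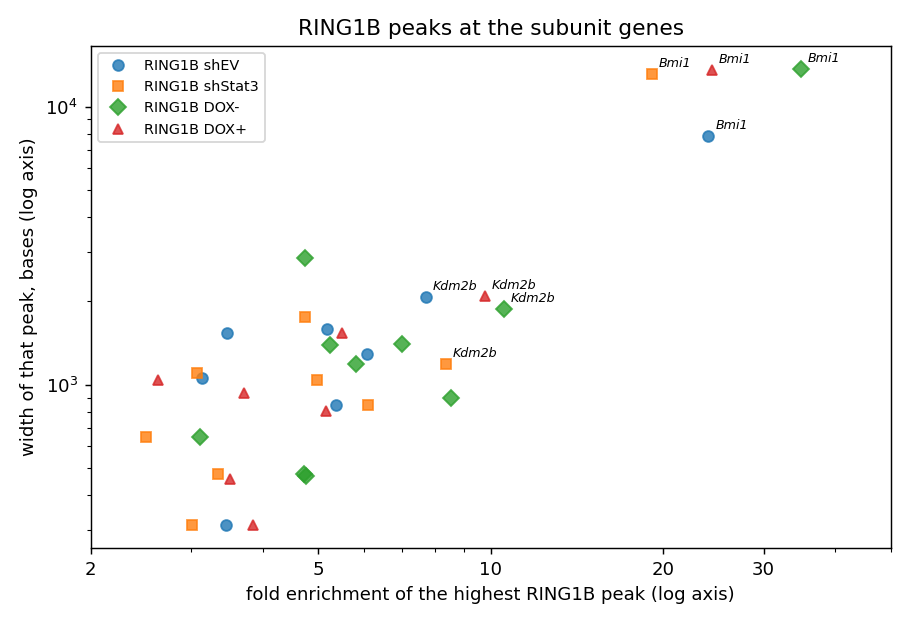
Width in bases against fold enrichment, both on log axes, of the highest RING1B peak at each member with one, with a symbol for each of the 4 lists. The 4 points of Bmi1 lie at the upper right, apart from the other members, and Kdm2b, read over 22 annotated starts, is next in enrichment.

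STAT3 peaks were few in the lists of 1 sample each, at 4 members in Rybp+/+ (Rnf2, Bmi1, Pcgf5 and Kdm2b) and at 2 in Rybp-/- (Bmi1 and Kdm2b), against 10.6% and 9.07% of background genes. In Tet.Rybp.Stat3 cells they lay at 3 members in DOX- (Bmi1, Pcgf6 and Kdm2b) and at 9 in DOX+, all but Pcgf1, against 12.7% and 76.9%. The lists differ in length, with 2816 STAT3 peaks in DOX- and 30663 in DOX+. Bmi1 and Kdm2b were the members with a STAT3 peak in all 4 lists. At Bmi1 the enrichment was 3.51 in Rybp+/+, 5.48 in Rybp-/-, 7.21 in DOX- and 7.41 in DOX+. Kdm2b has 22 annotated starts, which gives it more windows in which to hold a peak. Its highest STAT3 peak lay at a different start in each of the 4 lists. In Rybp-/- it lay at the start that is 6 bases from an Orai1 start, so that it cannot be given to Kdm2b alone.

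**Figure D5:**
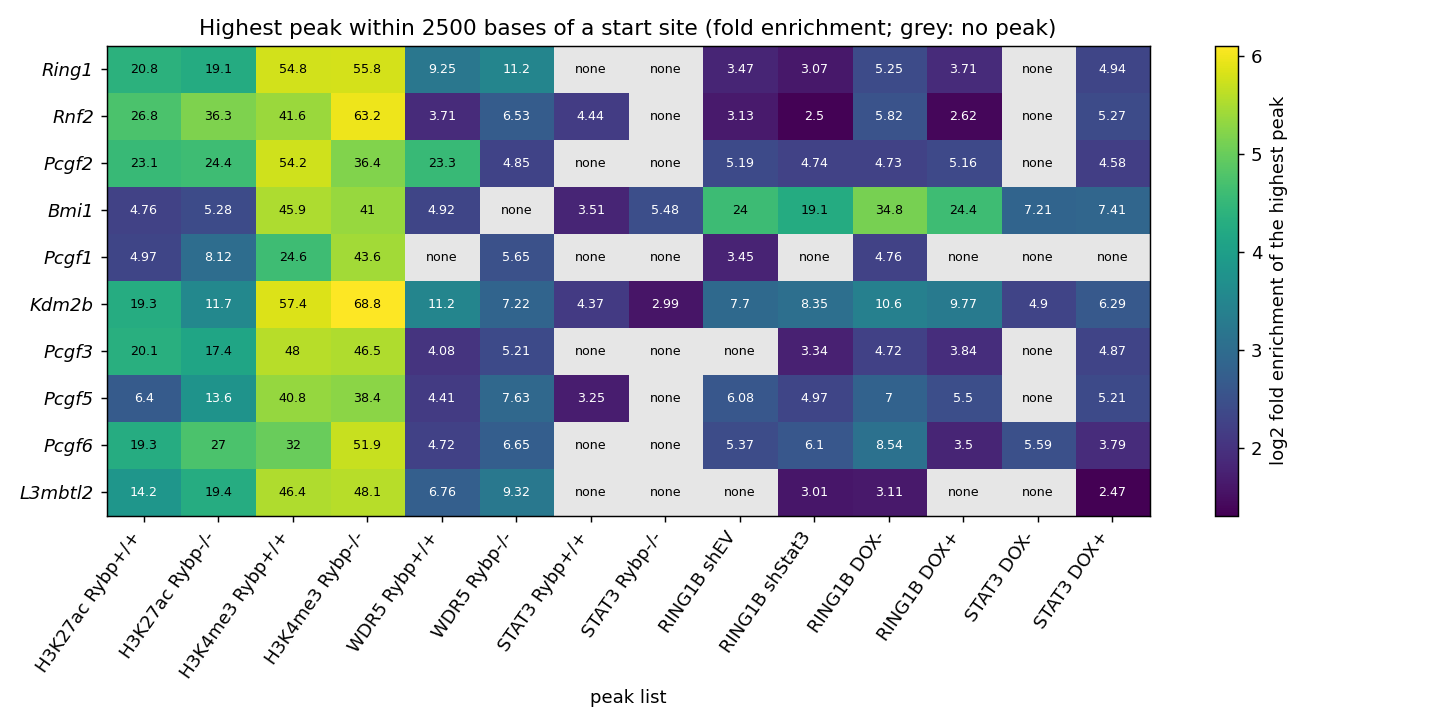
Fold enrichment of the highest peak within 2500 bases of an annotated start for each member (rows) in the 14 lists (columns), with the value printed in each cell, the colour on a log2 scale and grey where the list has no peak. Bmi1 has the highest RING1B values and H3K4me3 is present throughout.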

How the data were processed

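RNA-seq tables held counts per gene that the authors made with Trim Galore, STAR and HTSeq on mm9, per the labels and the study's methods; the strand setting is not given in the sources used here. Rows for reads on no gene (13.7 to 26.5% of reads in 6 of the tables) were left out. The deposited MACS2 peak lists gave fold enrichment over input as a ratio and −log10 q per peak, and 1 list stood for each antibody and condition.

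Each table was fitted alone in edgeR 4.0.16 (R 4.3.3) with TMM scaling, the filterByExpr filter, the quasi-likelihood test and Benjamini-Hochberg adjustment over all genes tested, and a gene was called at an adjusted p under 0.05. CPM values are scaled by TMM. Alternatives were RLE size factors, total counts only, no filter, DESeq2 1.42.0, the replicate number as a block, and each library left out. A robust dispersion fit, run first by mistake, and the joint fit of knockout and knockdown (also with total counts only) were added after the data had been seen. The fits were tested on simulated data; in the first run this test failed through a fault in the simulation, and it passed after that was repaired. The simulation of the joint fit was added after that fit had been run.

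Peaks were assigned within 2500 bases of any start in GENCODE vM1 (NCBIM37). The start used for the sequence windows was set to the same rule in members and background after first values had been seen.  Members, gene lists and markers were chosen with earlier results of these data known. Named by rule were the members, the targeted genes, at most the 2 called genes of each list with the largest change in each comparison, and the 3 genes nearest to Bmi1; Commd3, Psmb3, Orai1, A930024E05Rik and Chadl were added after values were seen, as neighbours. Other ChIP-seq and proximity labelling samples of the series were not used here.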

Additional observations from a re-analysis of the deposited data

Results flagged for a closer look

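For 6 members the effect in the Rybp knockout differed from that in the Rybp knockdown in the joint edgeR fit over both tables, given as the knockout log2 fold change minus the knockdown log2 fold change. Of all 18203 genes tested there, 40.5% differed. The difference was -1.07 for Pcgf5, -0.77 for Pcgf1, -0.75 for Bmi1, -0.26 for Pcgf3, 0.20 for Rnf2 and 0.52 for Pcgf2. For Pcgf5 the direction itself was opposite, since it fell in the knockout and rose in the knockdown. With total counts in place of TMM scaling the difference of Rnf2 was 0.046 and no longer passed, while the other 5 passed in the same direction. The comparisons differ in cell line, method, drug and table, which cannot be told apart.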

How the results depend on the processing

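Of the 37 calls of members, 30 held under every other setting with all libraries in, 27 also with each library left out in turn, and 0 changed direction. The cause of the changes below was not tested. With total counts only, 6 members were called in the Rybp knockdown and 1 in RYBP overexpression, and the uncalled log2 fold changes of Pcgf3 in the knockout (0.015), Rnf2 in the TF-AA mutation (0.014) and Pcgf3 in phase disruption (0.0057) turned positive. In the joint fit the same scaling ended the call of Rnf2 and turned the uncalled differences of Kdm2b to -0.032 and L3mbtl2 to -0.14. With no filter 1 member was called in RYBP overexpression. The replicate block gave 1 member there and 8 in rTRS, against 0 and 5. The genes called went from 899 to 1211 and from 7070 to 8559, and in the TF-AA mutation from 4412 to 5525. Deviations of same-numbered libraries correlated between -0.021 and 0.074 over all genes, with the highest values in the TF-AA mutation (0.074) and rTRS (0.069). Such small correlations over all genes do not settle whether the numbers pair the samples in those tables. DESeq2 called 2903 genes in the TF-AA mutation and 2659 in phase disruption, where edgeR called 4412 and 4814. Leaving out a library gave 2724 to 4767 called genes in the TF-AA mutation and 406 to 1566 in RYBP overexpression, with 0 to 3 members; 3 were called without vehicle replicate 1. Uncalled log2 fold changes that changed sign when a library was left out ran as follows. In the knockout Ring1 ran from -0.091 to 0.010, Pcgf3 from -0.067 to 0.041 and Bmi1 from -0.026 to 0.18. In the Wdr5 knockdown Ring1 ran from -0.095 to 0.00043 and Pcgf5 from -0.22 to 0.095. In the TF-AA mutation Rnf2 ran from -0.11 to 0.056 and Pcgf6 from -0.026 to 0.15. In phase disruption Pcgf2 ran from -0.26 to 0.018. In RYBP overexpression Pcgf2 ran from -0.17 to 0.013 and Pcgf5 from -0.26 to 0.014. With 2 libraries per group, small changes of low members such as Bmi1 and Pcgf1 are measured with the widest intervals.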
